A study of Mus musculus with 2 samples.

Results

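The 9 genes described here are *Gdnf*, *Ret*, *Gfra1*, *Pax8*, *Lhx1*, *Gata3*, *Gata2*, *Emx2* and *Calb1*, the core of GDNF-RET signaling and the regulators and a marker of the nephric duct (ND) epithelium. They were chosen by name, as all probes that carry one of these gene names on the array, and made up 9 of 29924 gene names with 11 probes. The RNA came from wildtype ureters of NMRI mouse embryos, explanted at E11.5. They were cultured for 18 h without serum at the air-liquid interface, either with 10 µM IWP-2 in DMSO or as controls. The sample titles say only control. DMSO alone is taken from the general culture methods, which name solvents in place of compounds, and the controls are called DMSO below. IWP-2 is a small molecule that inhibits PORCN, the acyltransferase that WNT proteins need to be secreted. Each of 2 two-colour Agilent arrays compared 1 pool of treated with 1 pool of control ureters, and the dyes were swapped between them: the treated pool carried AlexaFluor647 on replicate 1 and AlexaFluor555 on replicate 2. The arrays shared 1 slide and 1 scan. Each array had its own pools, so that batches of dissection, culture and RNA could not be separated from the replicate.

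GDNF is a secreted ligand of the mesenchyme around the ND. It binds the membrane-anchored co-receptor GFRA1 and thereby activates the receptor tyrosine kinase RET on the duct epithelium, which drives outgrowth of the ureteric bud and branching of its tips. PAX8, LHX1 and GATA3 establish and guide the ND, GATA3 acts upstream of *Ret*, and EMX2 is needed in the ureteric bud epithelium. These genes are also used outside the duct: *Ret*, *Gfra1*, *Gata2* and *Gata3* are known from neural crest derived neurons, and *Gata2* also from endothelium, blood progenitors and urogenital mesenchyme. As whole ureters were pooled, fewer cells of a type and less RNA per cell cannot be told apart.

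All 11 probes had every spot well above background in all 4 channels, and none was saturated. Each array gave 1 value per gene, the log2 ratio between the IWP-2 and the DMSO channel after normalization within that array. A change is the mean of both values, with the 95% confidence interval of the limma fit, and a gene passed the test where its Benjamini-Hochberg adjusted p, over 20119 genes, was under 0.05 (false discovery rate, FDR). The intensities printed are the background-subtracted, dye-normalized values of the scanner software, in arbitrary units. They can be compared between the channels of 1 probe on 1 array, but not between probes. No scaling between arrays was applied to them here, so an order of pools across both arrays only describes the printed values.

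Among the 9 genes, *Calb1* rose and *Gata2* fell, and the other 7 did not pass the test. In all genes tested, 1.76% passed, 0.611% as higher and 1.15% as lower. In sign, 7 of 9 genes were higher on both arrays, against 28.5% of all genes (5 of 9 if the arrays were only centred on the median, 6 of 9 in the deposited table of rounded fold changes). The other 2, *Gdnf* and *Gata2*, were lower on both arrays, against 27.5% of all genes, and were so under each of those scalings. The median change of the 9 genes was 0.25 on the log2 scale, beside 0.00 for all genes tested. At an unadjusted limma p under 0.05, 5 were higher and 2 were lower, where 8.67% and 4.74% of all genes were.

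**Figure D1:**
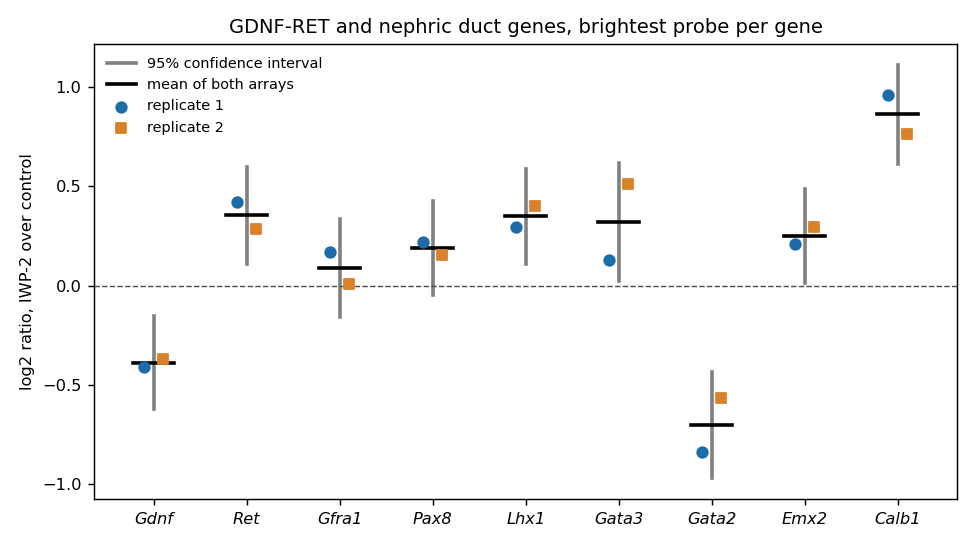
Log2 ratio of IWP-2-treated over control for the brightest probe of each gene. Circles are replicate 1 and squares replicate 2, black bars the mean of both, and grey lines the 95% confidence interval of the limma fit. *Calb1* (0.86) and *Gata2* (-0.70) lie farthest from 0 in opposite directions, and the intervals of *Gfra1* and *Pax8* include 0.

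The 250 bases before a transcription start are printed below for *Gdnf* (its second listed start), *Pax8*, *Gata3* and *Gata2* (its first listed start). They are RefSeq sequences of build GRCm38.p6, 5′ to 3′ on the strand of the gene. By symbol, 7 of the 9 genes (all but *Ret* and *Calb1*) matched 9 RefSeq windows. Capitals mark GATAA, the core of the motif that GATA factors bind, read on both strands. The core CTTTGA of the TCF/LEF motif, through which WNT signaling acts on its targets, was searched on both strands as well.
Gdnf, chr15:7813477-7813726, plus strand: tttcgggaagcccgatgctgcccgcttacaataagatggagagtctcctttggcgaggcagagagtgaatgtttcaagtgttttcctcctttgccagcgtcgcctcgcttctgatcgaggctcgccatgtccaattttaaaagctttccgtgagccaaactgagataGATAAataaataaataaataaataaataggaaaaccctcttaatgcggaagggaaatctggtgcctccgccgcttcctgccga
Pax8, chr2:24475600-24475849, minus strand: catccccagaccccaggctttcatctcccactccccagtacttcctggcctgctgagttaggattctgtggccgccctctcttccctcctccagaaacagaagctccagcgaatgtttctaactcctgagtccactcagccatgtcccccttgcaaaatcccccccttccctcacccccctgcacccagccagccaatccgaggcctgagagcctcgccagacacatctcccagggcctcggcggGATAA
Gata3, chr2:9878601-9878850, minus strand: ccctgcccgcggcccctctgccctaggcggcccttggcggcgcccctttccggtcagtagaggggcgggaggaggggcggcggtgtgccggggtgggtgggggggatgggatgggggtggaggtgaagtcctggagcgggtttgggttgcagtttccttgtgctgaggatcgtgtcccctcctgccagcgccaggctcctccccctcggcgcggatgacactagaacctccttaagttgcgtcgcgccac
Gata2, chr6:88193641-88193890, plus strand: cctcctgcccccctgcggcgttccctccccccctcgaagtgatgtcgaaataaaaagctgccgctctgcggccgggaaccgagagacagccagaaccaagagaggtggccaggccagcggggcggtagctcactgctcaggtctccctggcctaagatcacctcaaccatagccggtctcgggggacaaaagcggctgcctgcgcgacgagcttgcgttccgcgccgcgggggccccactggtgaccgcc
GATAA was found in 2 of the 9 windows, 83 bases before the second *Gdnf* start and directly before the *Pax8* start, while 22.6% of the 32851 windows of this length hold it. CTTTGA was found in 0 of the 9 windows, where 13.8% of all windows hold it. The motifs can share the letters GA, which did not occur here. A match is a run of letters and no shown binding site, and more distant elements were not searched.

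The ligand came first. *Gdnf* was measured by a probe at chr15:7787474-7787533 (build mm9, as are all probe positions, plus strand). Its intensity was 167.9 with IWP-2 and 224.7 with DMSO on replicate 1. On replicate 2 these intensities were 203.3 and 268.8. Both treated pools were below both control pools. The log2 ratios were -0.41 and -0.37, close to each other (mean -0.39 ± 0.03, SD, n = 2 arrays; 0.764-fold), and every spot was below 0. The interval ran from -0.62 to -0.15, and *Gdnf* did not pass the test (limma, unadjusted p = 0.00627, adjusted p = 0.135). A mean change of this size or more, in either direction, was found in 6.58% of all genes.

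Receptor and co-receptor did not pass either. *Ret* encodes the receptor tyrosine kinase that transduces the GDNF signal, and its probe lies at chr6:118101791-118101850 (minus strand). Its intensity was 1655 with IWP-2 and 1250 with DMSO on replicate 1, and 1759 and 1449 on replicate 2. Both treated pools were above both control pools. The log2 ratios were 0.42 and 0.29, with a mean of 0.35 and an interval from 0.11 to 0.60 (limma adjusted p = 0.181). On replicate 1, 3 of 4 spots of this probe were used.

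*Gfra1* encodes the anchored co-receptor that presents GDNF to RET, and its probe lies at chr19:58311604-58311663 (minus strand). Its intensity was 624.0 with IWP-2 and 555.7 with DMSO on replicate 1. On replicate 2 it was 676.3 and 675.5, which was the closest agreement of treated and control among the 9 genes. The log2 ratios were 0.17 and 0.01, and the spots of replicate 2 lay on both sides of 0. With centring on the median in place of loess they were 0.26 and -0.15. With a mean of 0.09 the interval ran from -0.16 to 0.34 (limma adjusted p = 0.880), so that changes within these limits in either direction remain possible. *Gdnf* and *Ret* had opposite signs on both arrays, although neither passed the test.

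**Figure D2:**
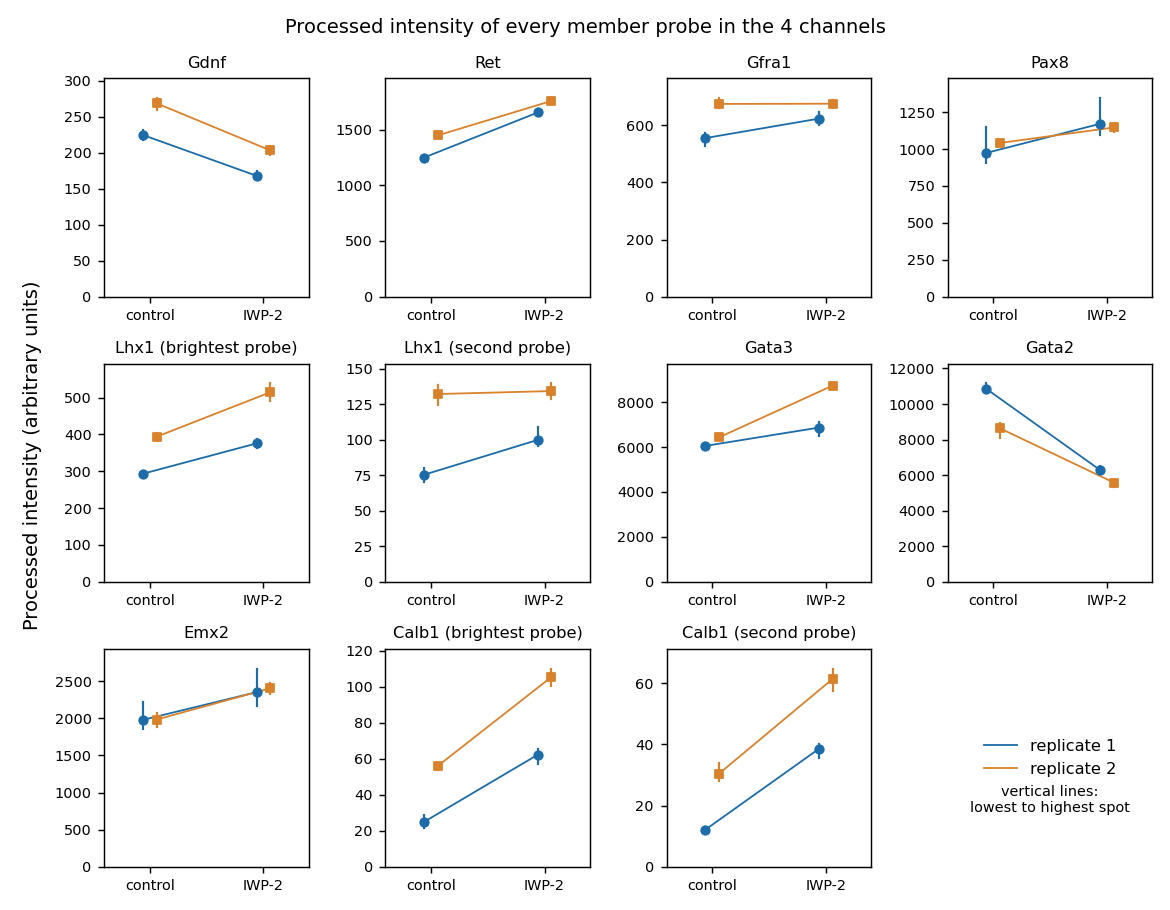
Processed intensity (arbitrary units, each axis from 0) of all 11 probes in control and IWP-2-treated pools. Circles are replicate 1, squares replicate 2, and vertical lines run from the lowest to the highest spot. Lines fall for *Gdnf* and *Gata2* on both arrays, and the *Gfra1* line of replicate 2 is flat (675.5 to 676.3).

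The transcription factor genes of the ND lineage came next. *Pax8* encodes a paired-domain factor that acts with PAX2 in specifying the nephric lineage, and its probe lies at chr2:24276147-24276206 (minus strand). Its intensity was 1171 with IWP-2 and 973.7 with DMSO on replicate 1, and 1146 and 1041 on replicate 2. Both log2 ratios were small, 0.22 and 0.16, and the interval of the mean (0.19) ran from -0.05 to 0.43 (limma adjusted p = 0.520). With centring on the median in place of loess, replicate 2 gave -0.01.

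*Lhx1*, which encodes a LIM homeodomain factor needed for the duct to form and extend, had 2 probes. The brighter probe (chr11:84331888-84331947, minus strand) had an intensity of 375.7 with IWP-2 and 293.2 with DMSO on replicate 1, and of 514.6 and 393.7 on replicate 2. Treated was above control on both arrays, although the treated pool of replicate 1 was below the control pool of replicate 2. The log2 ratios were 0.30 and 0.40, with a mean of 0.35 and an interval from 0.11 to 0.59 (limma adjusted p = 0.180). The second probe lies between chr11:84335442 and chr11:84335594, where its 60 bases span 153 bases of the genome. Here, the intensities were 99.9 against 75.35 on replicate 1 and 134.3 against 132.2 on replicate 2. Its log2 ratios were 0.33 and 0.02, so the probes were alike on replicate 1 and not on replicate 2 (mean 0.18; limma over all probes, adjusted p = 0.679).

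*Gata3* and *Gata2* encode related zinc finger factors, and the signs of their ratios differed on both arrays. *Gata3*, which is required for the duct to elongate toward the cloaca, was measured at chr2:9779551-9779610 (minus strand). Its intensity was 6872 with IWP-2 and 6054 with DMSO on replicate 1, and 8744 and 6434 on replicate 2. Treated pools were above control pools throughout, but the arrays disagreed in size. The log2 ratio was 0.13 on replicate 1, with spots from 0.00 to 0.24, and 0.51 on replicate 2, with spots from 0.48 to 0.57. With centring on the median in place of loess, the order of the arrays turned, at 0.44 on replicate 1 and 0.10 on replicate 2. The mean of 0.32 had an interval from 0.03 to 0.62 and did not pass the test (limma adjusted p = 0.324).

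*Gata2*, a gene known for its part in the development of the urogenital tract and in blood formation, was measured at chr6:88156362-88156421 (plus strand). Its intensity was 6281 with IWP-2 and 10850 with DMSO on replicate 1. On replicate 2 it was 5580 and 8628. Both treated pools were well below both control pools. *Gata2* fell to 0.614-fold of the control, with log2 ratios of -0.84 and -0.57 (mean -0.70 ± 0.19, SD, n = 2 arrays) and an interval from -0.97 to -0.44 (limma, unadjusted p = 0.000521, adjusted p = 0.0390). Only 1.05% of the genes tested had a lower mean. Its value hardly moved between alternatives, from -0.72 to -0.70, but it passed the test in only 6 of 13 of them, and its adjusted p reached 0.465 when the arrays were only centred on the median.

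*Emx2* encodes a homeodomain factor of the ureteric bud epithelium, and its probe lies at chr19:59539142-59539201 (plus strand). Intensities were 2351 with IWP-2 and 1978 with DMSO on replicate 1, and 2403 and 1982 on replicate 2. The log2 ratios were 0.21 and 0.29 with overlapping spots, and 0.34 and 0.10 with centring on the median. The mean of 0.25 had an interval from 0.01 to 0.49 (limma adjusted p = 0.340).

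*Calb1* encodes the calcium-binding protein calbindin, a marker of the ND, the ureteric bud and its tree, and was the gene with the largest change of the 9. Its brighter probe (chr4:15835078-15835137, plus strand) had an intensity of 62.33 with IWP-2 and 24.99 with DMSO on replicate 1. On replicate 2 the intensities were 105.5 and 56.05. Both treated pools were above both control pools, and all spots were above background. *Calb1* rose 1.82-fold, with log2 ratios of 0.96 and 0.77 (mean 0.86 ± 0.14, SD, n = 2 arrays) and an interval from 0.61 to 1.11 (limma, unadjusted p = 0.00011, adjusted p = 0.0172). It ranked 62nd from the highest of 20119 genes.

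The second *Calb1* probe (chr4:15833582-15833641) had intensities of 38.57 against 12.11 on replicate 1 and of 61.41 against 30.41 on replicate 2. Its log2 ratios of 0.97 and 0.77 were nearly those of the brighter probe. In the fit over 26947 probes both passed (limma adjusted p = 0.0106 each). There, 3 of 11 probes passed, 2 higher and 1 lower, where 0.824% and 1.23% of all probes did. These probes were dim, and the offset added in background correction pulls ratios of dim probes toward 0. The processed intensities gave larger log2 ratios, 1.32 and 0.91 for the brighter probe and 1.67 and 1.01 for the second. *Calb1* passed in 8 of 13 alternatives, with values from 0.85 to 1.12 and adjusted p from 0.00924 to 0.412.

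**Figure D3:**
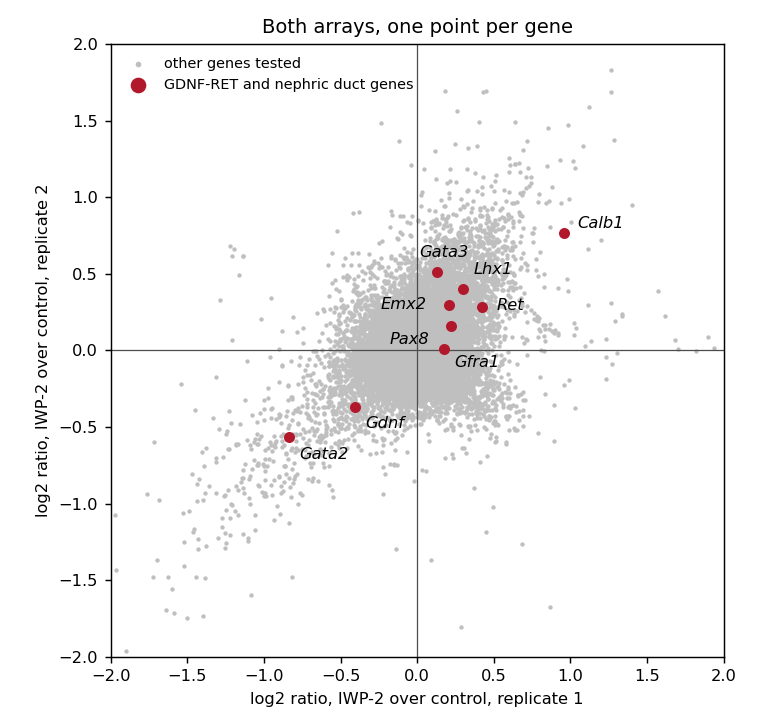
Log2 ratio of IWP-2-treated over control on replicate 1 (x axis) against replicate 2 (y axis), with 1 point per gene and the 9 genes in red. Axes end at 2 in size and leave out 30 of 20119 genes. *Calb1* lies to the upper right and *Gata2* and *Gdnf* to the lower left, and the others lie within the dense cloud of genes.

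Over all genes tested, the arrays correlated with r = 0.465 and rho = 0.250, and 56.0% of genes had the same sign on both. When the arrays were only centred on the median, r was 0.00673. These are values across genes, which are not independent replicates. When the sign of replicate 2 was not turned, the fit looked for differences between the dyes in place of the treatment. Here, 0 genes passed FDR 0.05, 438 had an unadjusted limma p under 0.05 (2.18%), and none of the 9 genes was among them. All 9 genes had the same sign on both arrays, which this fit counts as spread. It could therefore hardly call them, and their absence decides nothing about the dyes. A filter without a test, modelled on the methods (a 2-fold or greater difference of 1 sign on each array, with the brighter channel at 100 or more), was passed by 0 of the 9 genes, of which 8 were bright enough (all but *Calb1*). Of 14549 genes bright enough, 0.344% passed it as lower and 0.0756% as higher. With a fold change of 1.5, *Gata2* passed as lower.

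Other ligands and co-receptors of the GDNF family, and genes listed with them, were examined next. Of 8 such genes, 6 were tested, and only *Gfra2*, which encodes the co-receptor for neurturin, passed, where 1.76% of all genes did. Its intensity was 1106 with IWP-2 and 1703 with DMSO on replicate 1, and 844.3 and 1560 on replicate 2. *Gfra2* fell by 0.75 on the log2 scale, with ratios of -0.65 and -0.85 (limma adjusted p = 0.0282). The ligand gene *Nrtn* had a mean of -0.03, and *Artn*, which encodes the ligand artemin, one of 0.19. The means of *Gfra3*, *Gfra4* and *Ncam1*, which encode the co-receptors for artemin and persephin and an alternative GDNF receptor, were 0.02, 0.15 and 0.04. *Gdf15* and *Pspn* were too dim to be tested. The median of the 6 was 0.03.

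Genes that relay or read out the RET signal gave a mixed picture. None of 13 adaptor and effector genes passed. Their median was -0.11, and those with the largest changes of the same sign on both arrays were *Dok4* (-0.25), *Gab1* (-0.23), *Shc1* (0.20) and *Ptpn11* (-0.12). Of 15 RET target and tip genes, 1 passed as higher and 1 as lower, where 0.611% and 1.15% of all genes did. The median of the 15 was 0.12. *Cxcr4*, which encodes a chemokine receptor, rose by 0.67 on the log2 scale (intensities of 1575 against 1088 and 1632 against 935.3; limma adjusted p = 0.0416). *Sox9*, which encodes an HMG box factor that is known from bud tips but also from ureteric mesenchyme, fell by 1.30 (566.4 against 1685 and 600.1 against 1269; limma adjusted p = 0.0108).

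Of the feedback inhibitors of receptor tyrosine kinases among these targets, *Spry1* had log2 ratios of 0.49 and 0.63 (limma adjusted p = 0.0557), and *Spry2* had ratios of 0.29 and 0.32. *Dusp6*, which encodes a phosphatase of ERK, had ratios of 0.50 and 0.46 (limma adjusted p = 0.0774). These 3 were higher on both arrays without passing the test. *Spry4* and *Spred2*, named after their values were seen, had ratios of -0.12 and 0.73 and of 0.09 and 0.16. *Wnt11*, a gene of the bud tips that GDNF is known to induce, had ratios of -0.35 and -0.14. *Etv4* and *Etv5*, the factors best known to act downstream of RET, are named after their values were seen. Their ratios changed sign between the arrays, at 0.17 and -0.37 for *Etv4* and 0.01 and -0.13 for *Etv5*.

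Of 28 genes known to regulate *Gdnf* or the response to it, 4 passed, all as lower, and the median was -0.06. In all genes tested, 1.15% passed as lower and 0.611% as higher. Like the other lists, this one was chosen with earlier results of these data known. *Tbx18*, which encodes a T-box factor of the ureteric mesenchyme, fell by 1.03 on the log2 scale (687.6 against 1591 and 725.4 against 1363; limma adjusted p = 0.0126). *Foxc2*, a forkhead factor gene, fell by 0.86 (3488 against 6200 and 3194 against 5938; limma adjusted p = 0.0136). *Frem1*, which encodes an extracellular matrix protein of basement membranes, fell by 0.86 (1273 against 2357 and 1318 against 2366; limma adjusted p = 0.0140). *Bmp4*, which encodes a signal that counteracts GDNF-driven budding, fell by 0.73 (14100 against 20930 and 10220 against 19560; limma adjusted p = 0.0416). Further genes lower on both arrays were *Osr1* (-0.56; limma adjusted p = 0.0503), *Hoxd11* (-0.28) and *Hoxc11* (-0.24), and *Fras1* had a mean of 0.38.

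None of 22 further genes of ND and ureteric bud epithelium passed. Their median was 0.09, with 10 higher and 4 lower on both arrays, against 28.5% and 27.5% of all genes. Their summed intensity was 84400 with IWP-2 and 82120 with DMSO on replicate 1, and 87950 and 77830 on replicate 2. Such sums over probes, here and below, weigh the brightest probes most and do not stand for each gene. The largest values of 1 sign were those of *Shh*, *Sim1*, *Upk3a* and *Wnt9b*. *Shh*, the hedgehog ligand gene of the ureteric epithelium, had log2 ratios of -1.33 and -0.44 (limma adjusted p = 0.0994). Those of *Sim1* were 0.19 and 0.86. *Wnt9b*, which encodes a WNT signal of the duct, had ratios of -0.46 and -0.44 (limma adjusted p = 0.0914). The uroplakin gene *Upk3a* had ratios of -0.88 and -0.10. Its probe was dim, with intensities of 2.149 against 17.84 on replicate 1 and 24 against 26.58 on replicate 2.

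**Figure D4:**
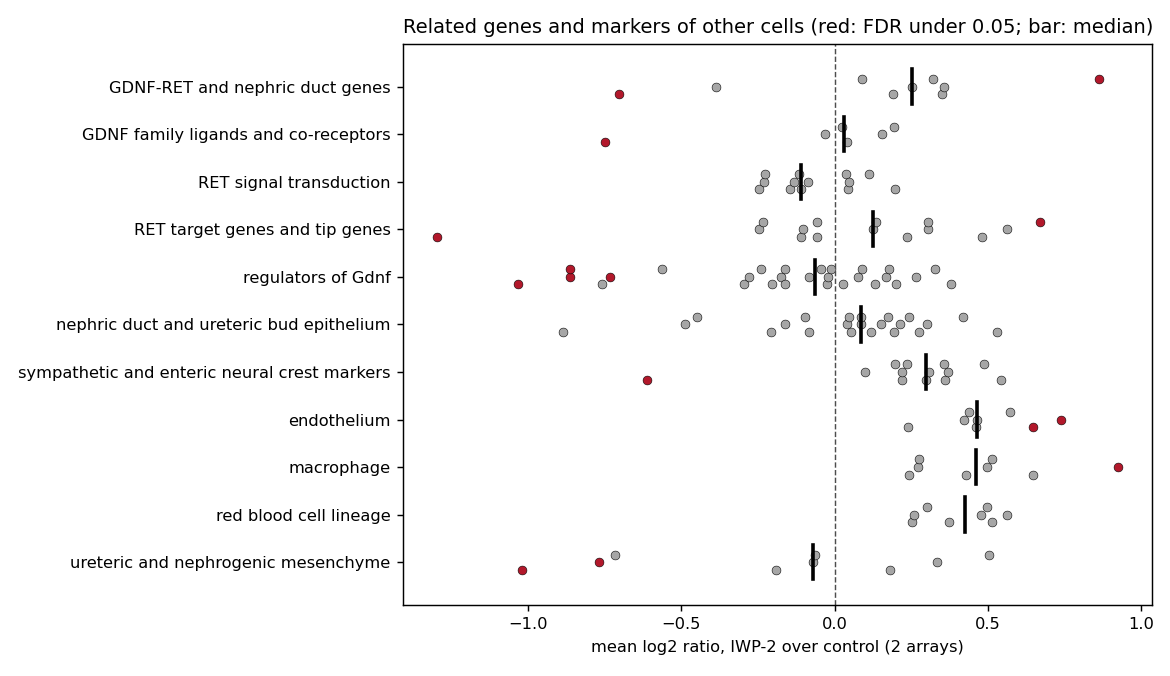
Mean log2 ratio of IWP-2-treated over control for each gene tested (points), by gene list, with the list median as a black bar. Red points passed FDR 0.05. The medians of endothelium (0.46), macrophage (0.46), red blood cell (0.42) and neural crest (0.30) markers lie to the right of 0, and that of further ND and ureteric bud genes (0.09) lies near it.

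Markers of other cells in the explants had mostly higher values in the treated pools, as 7 of the 9 genes did. In all genes tested, 28.5% were higher and 27.5% lower on both arrays, and 0.611% passed as higher and 1.15% as lower. The sign counts of the lists, here and below, are those after loess. Of 13 sympathetic and enteric neural crest markers, 11 were higher on both arrays with a median of 0.30, and their summed intensity was 97440 and 82310 in the treated and 79360 and 72220 in the control pools. None of them passed as higher, and *Isl1* fell by 0.61 (limma adjusted p = 0.0423). *Stmn2* (0.37) and *Tubb3* (0.36), genes of neurons, were among those higher on both arrays. All 8 endothelial markers were higher on both arrays, with a median of 0.46. Their sums were 17830 and 16270 in the treated and 12950 and 10140 in the control pools, and *Kdr* (0.74) and *Cldn5* (0.65) passed. The next were *Cdh5* (0.57), *Tek* (0.47), *Pecam1* (0.46) and *Esam* (0.44).

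All 8 macrophage markers tested were also higher on both arrays, with a median of 0.46 and sums of 13580 and 11330 in the treated and 10560 and 8052 in the control pools. *Adgre1* passed (0.92), followed by *Aif1* (0.65), *Mrc1* (0.51), *C1qa* (0.49) and *C1qb* (0.43). The red blood cell genes had a median of 0.11 on replicate 1 and of 0.58 on replicate 2, with sums of 154700 and 111900 in the treated and 138500 and 70800 in the control pools. None of 8 passed, and *Hbb-bh1* (0.56), *Hba-x* (0.51), *Hbb-y* (0.50) and *Alas2* (0.48) had the largest means. No marker of these lists was at 0 in any pool. The 9 further genes of ureteric and nephrogenic mesenchyme were mixed, with a median of -0.07, 5 lower and 3 higher on both arrays. *Osr2* (-1.02) and *Tcf21* (-0.77) fell, and *Wt1* (-0.72), *Pdgfrb* (0.50), *Meis1* (0.33) and *Pdgfra* (-0.19) had the largest values of 1 sign among those that did not pass. Their sums were 70900 and 71410 in the treated and 79220 and 67740 in the control pools. The part that these cell types had in the values of *Ret*, *Gfra1*, *Gata3*, *Gata2* and *Calb1* was not tested.

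**Figure D5:**
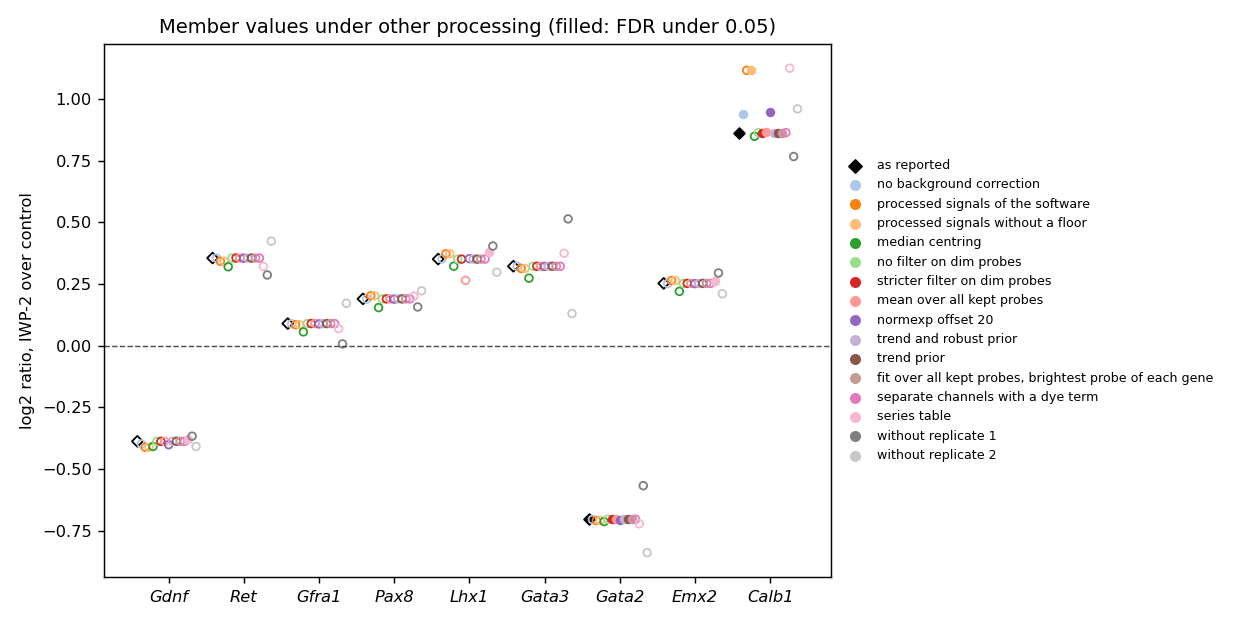
Mean log2 ratio of IWP-2-treated over control for each gene as reported (diamonds) and under other processing (circles). Filled symbols passed FDR 0.05, and single arrays have no test; the series table holds the deposited rounded fold changes. Each gene keeps its side of 0 in all settings shown, whereas the filled symbols of *Gata2* and *Calb1* appear under 6 and 8 of 13 alternatives with a test.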

How the data were processed

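Transcripts of IWP-2-treated and control ureter pools were measured on 2 two-colour arrays with 174979 spots each. Per the file headers, the deposited intensity values were read by Feature Extraction 12.2.0.7 (the submitters' processing notes name version 10.7.3.1) and hold mean and local background signals, processed signals and spot flags. The authors also deposited a score per probe, signed fold changes of treated over control, rounded to 1 decimal.

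Mean signals were corrected by normexp (offset 50) and loess-normalized within each array in R 4.3.3 with limma 3.58.1 and version 1.17.8 of the data.table package. Outlier spots were dropped and the spots of a probe averaged. Probes had to have a share above 0.5 of spots well above background in 1 condition, treated or control, on both arrays, and the brightest kept probe stood for the gene. Genes were tested with lmFit and eBayes, giving replicate 2 the opposite sign for its swapped dyes, with Benjamini-Hochberg adjustment. The 2 arrays left 1 residual degree of freedom, which with a prior of 5.52 limits the precision. Replicates are pools of ureters. The p-values and intervals rest on the spread between these pools, drawn toward a spread estimated from all genes tested. They cover no variation beyond these pools. The procedure was run on simulated data. All changes planted there were larger than those of the genes described here other than *Calb1*, so smaller changes were not covered.

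The genes and the 10 further gene lists were chosen with earlier results of these data known. From the further lists, genes past FDR 0.05, up to 4 others with the largest change of the same sign on both arrays, and all GDNF family genes are named, except for some that are not reported here. Positions are those of the files (mm9), and RefSeq sequences (GRCm38.p6) were matched by symbol. Alternatives were background correction, normalization, probe filter and choice, offset, variance prior, a separate-channel model, the deposited rounded fold changes and single arrays. A fit of all kept probes and processed signals without a floor were added after seeing the data.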

Additional observations from a re-analysis of the deposited data

How the results depend on the processing

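All 9 genes kept the sign of their mean in all 13 alternatives with a test and on each array alone. Of the calls, 232 genes were lower and 123 higher as reported, with *Gata2* and *Calb1* among them. Without background correction 74 were higher and 0 of the 9 genes lower (*Gata2*, adjusted p = 0.0566). Processed signals left 75 higher and 0 of the 9 lower without a floor (*Gata2*, 0.0634), and 0 lower and 0 higher with a floor of 15, where 908 genes lay at the floor in all channels and 1108 and 1356 had an unadjusted limma p under 0.05. Median centring left 36 lower and 7 higher, and the correlation of the arrays was then 0.00673. Without a filter on dim probes 98 were lower and 21 higher, over 29899 genes tested. Separate channels with a dye term, with the correlation between channels estimated without that term, left 0 lower and 0 higher (882 and 1361 at an unadjusted limma p under 0.05). In the latter 3, and in the floored signals, 0 of the 9 genes passed in either direction (*Calb1*, adjusted p = 0.239, 0.0507, 0.412 and 0.396).

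Higher genes numbered 224 with the mean over all kept probes, 226 with a trend and robust prior, 224 with a trend prior and 187 in the fit over all kept probes, with *Gata2* and *Calb1* past the threshold in each. The deposited rounded fold changes gave 1322 lower and 1038 higher genes; there 2 of the 9 were higher (*Lhx1* and *Emx2*) and *Gdnf* was lower (adjusted p = 0.0419 each), 3 genes whose rounded values were equal on both arrays and so had no spread, while *Gata2* (0.0929) and *Calb1* (0.311) did not pass. The causes of the differences between the alternatives were not tested.

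The fold change filter gave 50 lower and 11 higher genes, 165 and 73 at a fold of 1.5 with 1 of the 9 (*Gata2*) lower, and 26 and 7 at an intensity of 100 in both channels. On single arrays it gave 63 to 127 lower and 35 to 62 higher genes. 1 array leaves no residual degree of freedom, so no test was run without a replicate. The test was already paired, as each ratio sets the treated against the control pool of 1 array. Both arrays lay on 1 slide, so slide could not be used as a block.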

Other observations

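Some genes of the kidney mesenchyme, which expresses *Gdnf* at the bud tips, went opposite ways on the arrays. They were chosen after their values were seen. *Six2* had log2 ratios of 1.03 on replicate 1 and -0.38 on replicate 2, and *Foxd1* had ratios of 0.89 and -0.36. *Sall1* had ratios of 0.29 and -1.81. *Wt1* was lower on both arrays but unequally, at -0.14 and -1.29. Over the same arrays the ratios of *Gdnf* were -0.41 and -0.37.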
